A study of Homo sapiens with 6 samples.

Results

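The ATP-binding cassette (ABC) transporters are a superfamily of membrane pumps that use ATP hydrolysis to move lipids, peptides, metals, bile salts and drugs across membranes. The members were taken as every protein-coding gene whose symbol runs from ABCA to ABCG and ends in a number, which gave 45 of the 19951 protein-coding genes and 58735 genes listed. Of these, 31 had enough counts for a test and 14 did not. RNA-seq was compared between 3 libraries of MDA-MB-231 parent cells, a mesenchymal-like triple-negative breast cancer line with the genotype label WT, and 3 libraries of its Adriamycin (ADR, doxorubicin) resistant derivative, here named ADRr. The parent cells were exposed to rising ADR concentrations, the survivors were expanded in drug, and clones were isolated by limiting dilution, so ADRr stands for a selected clone and its clonal differences from the parent population cannot be told apart from drug resistance. The growth medium was the same in the labels of both groups, and whether ADR was present at harvest is not given in the sources used here. The labels give no culture identity for the libraries, so the p-values measure the spread between these libraries, which may be technical. The series' design text also speaks of 3 time points, which no sample label gives, so the libraries of a group were taken as replicates and a part of time in their spread was not tested.

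ABC proteins couple nucleotide-binding domains to membrane-spanning domains. Drug efflux by P-glycoprotein (ABCB1), MRP1 (ABCC1) and BCRP (ABCG2) is the textbook mechanism by which tumour cells lower their content of anthracyclines such as ADR. Other branches of the family load cholesterol and phospholipids onto lipoproteins, serve mitochondria, lysosomes and peroxisomes, or, in the ABCE and ABCF branches, have no membrane domains and act in translation.

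The libraries held 15983985 to 18272314 counts assigned to genes, and 3 counts, the upper limit that a count of 0 allows, corresponded to 0.164 to 0.188 CPM, a count scaled to library size (counting error only). Of the cell line markers, VIM and CD44 were abundant in both groups, whereas ESR1 and PGR had at most 1 count per library, and ERBB2 fell from 2059 ± 164 to 869.5 ± 46.4 normalized counts. None of 6 leukocyte markers had enough counts for a test. Together the 45 members took 0.166% to 0.169% of the counts in parent libraries and 0.145% to 0.147% in ADRr libraries.

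Of the 31 members tested, 9 were higher in ADRr cells and 17 were lower, while 5 were not called. A member was called when edgeR's quasi-likelihood test gave an adjusted p of at most 0.05 and the fold change was at least 1.2. By the same rule 29.2% of all 15242 genes tested were higher and 29.6% were lower, against 29% and 54.8% of the members. The median log2 fold change was -0.30 over the members and -0.01 over all genes tested, and the median absolute log2 fold change was 0.68 and 0.46. In 9 members every ADRr library lay above every parent library and in 17 every ADRr library lay below, where 34.5% and 34.7% of all genes did so. A log2 fold change of at least 1 was called in 5 higher members (9.74% of all genes) and a log2 fold change of at most -1 in 5 lower members (9.05% of all genes). The higher members of that size were ABCG1, ABCG2, ABCA1, ABCC4 and ABCA3, and the lower ones were ABCA6, ABCA8, ABCC6, ABCB6 and ABCA2.

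**Figure D1:**
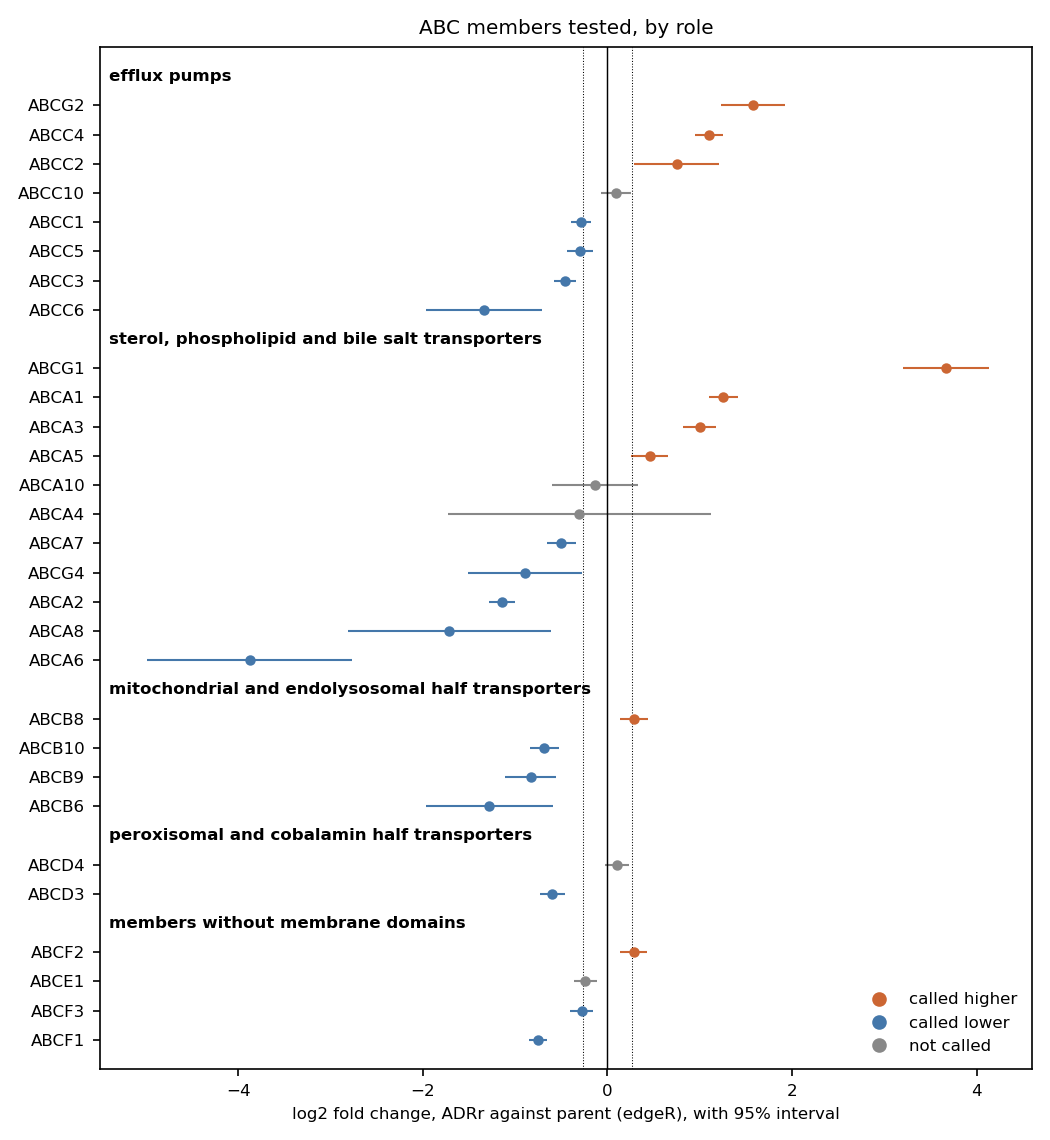
The log2 fold change of ADRr against parent cells is plotted for 29 of the 31 members tested, grouped by role, with 95% intervals from the edgeR fit and dotted lines at the fold threshold of 1.2. ABCG1 lies farthest to the right at 3.66 and ABCA6 farthest to the left at -3.88, and the intervals are widest for ABCA4, ABCA6 and ABCA8, which had few counts.

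The promoter windows of ABCB1, ABCG2, ABCC4 and ABCA1 are shown because they stand for a pump that was not detectably transcribed and for 3 that were higher. Each window runs from 250 bases before to 50 bases after a RefSeq transcription start on GRCh38.p14, on the minus strand and 5′ to 3′, and for genes with several starts the one farthest downstream was taken. ABCB1 is chr7:87600835-87601134, ABCG2 is chr4:88158590-88158889, ABCC4 is chr13:95301402-95301701 and ABCA1 is chr9:104928106-104928405. Capitals mark matches on either strand to GCGTG, the core bound by the aryl hydrocarbon receptor, or to TGACNNNGC, the antioxidant response core bound by NRF2.
ABCB1: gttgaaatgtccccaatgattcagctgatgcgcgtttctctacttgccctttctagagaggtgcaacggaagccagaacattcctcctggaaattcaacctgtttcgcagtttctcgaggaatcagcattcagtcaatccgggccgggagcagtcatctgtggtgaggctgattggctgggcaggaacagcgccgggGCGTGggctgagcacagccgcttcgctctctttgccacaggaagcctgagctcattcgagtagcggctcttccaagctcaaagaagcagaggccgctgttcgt
ABCG2: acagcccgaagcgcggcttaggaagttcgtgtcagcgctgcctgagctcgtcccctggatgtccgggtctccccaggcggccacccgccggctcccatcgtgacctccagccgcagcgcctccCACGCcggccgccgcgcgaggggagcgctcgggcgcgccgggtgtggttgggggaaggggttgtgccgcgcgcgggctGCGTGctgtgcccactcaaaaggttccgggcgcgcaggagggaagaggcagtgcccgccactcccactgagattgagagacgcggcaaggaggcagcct
ABCC4: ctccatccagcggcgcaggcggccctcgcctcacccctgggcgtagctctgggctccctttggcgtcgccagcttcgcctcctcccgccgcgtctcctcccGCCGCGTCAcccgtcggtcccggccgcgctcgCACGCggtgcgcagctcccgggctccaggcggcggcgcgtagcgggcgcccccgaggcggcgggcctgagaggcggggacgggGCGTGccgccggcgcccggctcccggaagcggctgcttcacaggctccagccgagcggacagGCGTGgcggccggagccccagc
ABCA1: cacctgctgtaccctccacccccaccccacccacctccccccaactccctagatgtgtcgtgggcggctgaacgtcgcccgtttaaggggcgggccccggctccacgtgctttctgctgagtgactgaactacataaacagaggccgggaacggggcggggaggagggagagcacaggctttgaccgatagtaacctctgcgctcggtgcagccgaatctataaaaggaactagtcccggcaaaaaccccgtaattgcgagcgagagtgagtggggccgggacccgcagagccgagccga
The ABCB1 window held 1 match to GCGTG, the ABCG2 window held 2, and the ABCC4 window held 3 together with 1 match to the antioxidant core. The ABCA1 window held neither. These matches depend on the start chosen. Another ABCG2 window, chr4:88159241-88159540, held 1 match to the antioxidant core and 0 to GCGTG. The ABCG2 window chr4:88231577-88231876 and the ABCB1 window chr7:87713246-87713545 held neither. A window was found for 35 members, and 10 had none, ABCG1, ABCC1 and ABCC3 among them. A gene was counted once if any of its windows held the letters. GCGTG was present in 5 of 8 higher, 9 of 12 lower, 2 of 4 not called and 2 of 11 untested members. The share was 40.6% of all 27305 genes with a window, tested or not. The antioxidant core was present in 4 of 8, 5 of 12, 2 of 4 and 1 of 11 in the same order, against 16.1% of all genes. Higher, lower and uncalled members all carried these letters, and a match describes the window only. The share over tested genes alone was not computed, so whether the members differ from other tested genes was not tested.

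Among the 12 efflux pumps of the P-glycoprotein, MRP and BCRP kind, 8 were tested, of which 3 were higher, 4 were lower and 1 was not called. These counts, and those of the role groups below, stand beside 29.2% of all genes tested higher and 29.6% lower. ABCB1 (ENSG00000085563, chr7:87503633-87713323), the P-glycoprotein gene, had 0, 0 and 0 raw counts in the parent libraries and 2, 0 and 0 in the ADRr libraries. These values lay at or under the 3 counts that a count of 0 allows, so ABCB1 transcript was not detectable in either group at this depth. ABCB5 and ABCC12 had no count in any library, and ABCC11 had 0 to 2 counts per library.

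ABCG2 (ENSG00000118777, chr4:88090264-88231322) encodes BCRP, which exports anthracyclines, mitoxantrone and topotecan. Its normalized counts were 77.2, 81.1 and 50.7 in the parent libraries and 225.5, 212.4 and 184 in the ADRr libraries, so the groups did not overlap. ABCG2 rose 2.99-fold (log2 fold change 1.58, SE 0.165, edgeR adjusted p = 1.78e-08). Its level remained modest for the family, with a mean of 2.36 FPKM (fragments scaled by gene length and library depth) in ADRr cells, rank 20 of 45.

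ABCC4 (ENSG00000125257, chr13:95019829-95301475) encodes MRP4, an exporter of cyclic nucleotides, prostaglandins and nucleoside analogues. It gave 617.4, 604.7 and 533.7 normalized counts in parent cells and 1333, 1176 and 1251 in ADRr cells. Every ADRr library was above every parent library, and the increase was 2.14-fold (log2 1.10, SE 0.0752, edgeR adjusted p = 1.32e-11). Per length, ABCC4 went from 3.88 to 8.32 FPKM, from rank 17 to rank 9 in the family. ABCC2, the canalicular exporter MRP2, was also higher, from 45.7 ± 5.12 to 77.0 ± 15.9 normalized counts (n = 3 each, log2 0.75, edgeR adjusted p = 0.00481), at a level below 1 FPKM in both groups.

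ABCC1 (ENSG00000103222, chr16:15949577-16143074) encodes MRP1, which exports glutathione conjugates and anthracyclines. It was the most abundant efflux pump in both groups, with 3362, 3142 and 3412 normalized counts in parent cells and 2647, 2712 and 2760 in ADRr cells. The ADRr libraries were all below the parent libraries, but the decrease was only 1.22-fold (log2 -0.29, SE 0.0528, edgeR adjusted p = 4.92e-05), close to the fold threshold. Without ADRr replicate 1 the log2 value was -0.26, just inside the threshold, and ABCC1 was no longer called. ABCC3, the basolateral exporter MRP3, fell from 3082 ± 150 to 2244 ± 119 normalized counts (log2 -0.46), and ABCC5, the cyclic nucleotide exporter MRP5, fell from 1010 ± 42.5 to 819.8 ± 28.6 (log2 -0.30).

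ABCC6 (ENSG00000091262, chr16:16148928-16223522), a liver and kidney transporter needed for ATP release, fell 2.53-fold. Its values were 50.4, 62.7 and 54.5 normalized counts in parent cells against 13.3, 18.8 and 33.6 in ADRr cells, without overlap (log2 -1.34, SE 0.302, edgeR adjusted p = 5.02e-04). ABCC6 has near-identical partial copies that may share reads with it, so its value is uncertain. The copy ABCC6P1 also fell, from 13.01 ± 1.48 to 1.88 ± 1.87 normalized counts (log2 -2.67, edgeR adjusted p = 9.5e-04), and ABCC6P2 went from 11.2 ± 3.75 to 2.31 ± 1.2 without enough counts for a test. ABCC10 was the 1 pump tested and not called, at 630.2 ± 11.3 and 673 ± 51.1 normalized counts, with a 95% interval of the log2 fold change from -0.07 to 0.26.

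Summed over the 12 pumps, the level per length was 58.2 ± 1.42 FPKM in parent cells and 54.2 ± 0.427 FPKM in ADRr cells. Most of both sums came from ABCC1 and ABCC3, whose means were 24.9 and 18.3 FPKM in parent cells and 20.5 and 13.4 FPKM in ADRr cells. The plot of library values shows the separation for the pumps and for the sterol transporters described next.

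**Figure D2:**
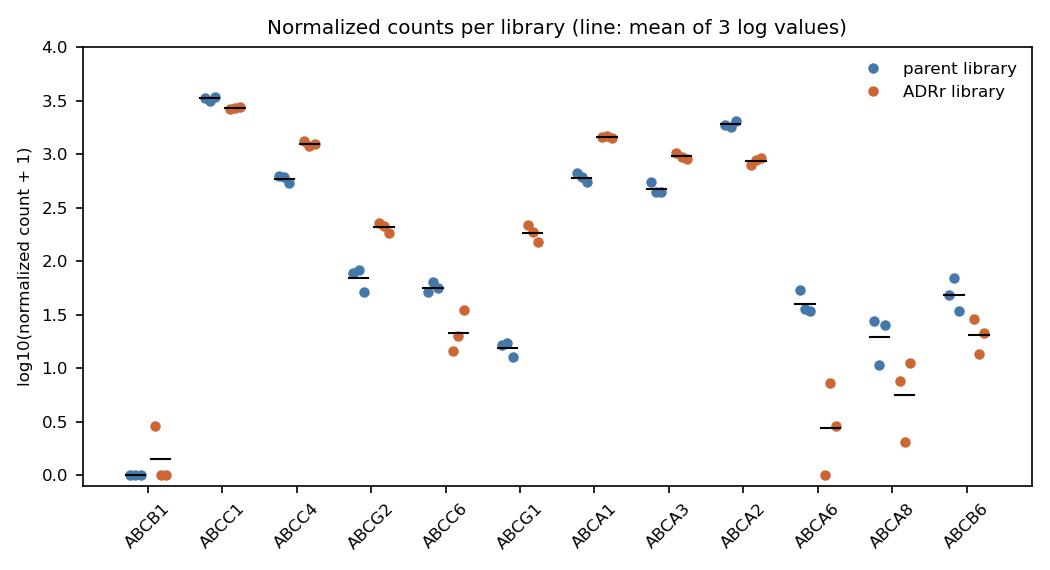
Normalized counts of 12 members are plotted per library as log10 of the value plus 1, with parent libraries in blue, ADRr libraries in orange and a line at the mean of each group's log values (n = 3). ABCB1 sits at or near 0 in all 6 libraries, ABCG2, ABCC4, ABCG1, ABCA1 and ABCA3 are higher in every ADRr library, and ABCA8 is a lowered member whose groups overlap.

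The 18 sterol, phospholipid and bile salt transporters included 11 tested members, of which 4 were higher, 5 were lower and 2 were not called. ABCG1 (ENSG00000160179, chr21:42199689-42297244), which exports cholesterol to high-density lipoprotein, had the largest increase of all members tested. Its normalized counts were 15.4, 16.2 and 11.7 in parent cells and 215.1, 186.3 and 150.4 in ADRr cells. All 3 ADRr libraries were far above the parent libraries, by 12.7-fold on average (log2 3.66, SE 0.224, edgeR adjusted p = 1.93e-12). In FPKM the mean went from 0.135 to 1.72, and the log2 fold change stayed between 3.52 and 3.79 when any one library was left out.

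ABCA1 (ENSG00000165029, chr9:104781002-104928237) starts cholesterol efflux by loading lipid onto apolipoprotein A-I, and like ABCG1 it is a target of the liver X receptors. It gave 666.8, 603.6 and 544.5 normalized counts in parent cells and 1451, 1484 and 1401 in ADRr cells. The ADRr libraries were all higher, by 2.39-fold (log2 1.26, SE 0.0738, edgeR adjusted p = 9.28e-13). ABCA3 (ENSG00000167972, chr16:2275881-2340746), the lamellar body lipid transporter of lung surfactant, gave 543.4, 443.5 and 445.1 against 1022, 940.8 and 902.2 normalized counts. It rose 2.00-fold (log2 1.00, SE 0.0855, edgeR adjusted p = 6.41e-10), again without overlap. ABCA5, a lysosomal lipid transporter, rose less, from 284.7 ± 7.49 to 390.8 ± 37.4 normalized counts (log2 0.46).

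ABCA2 (ENSG00000107331, chr9:137007227-137028922), a lysosomal lipid transporter, moved the other way. Its normalized counts were 1885, 1797 and 2017 in parent cells and 792.7, 870.7 and 925.5 in ADRr cells, a 2.20-fold decrease (log2 -1.14, SE 0.0682, edgeR adjusted p = 1.31e-12). It went from 9.43 to 4.30 FPKM, from rank 8 to rank 17 in the family. ABCA7, a phospholipid transporter related to ABCA1, fell from 768 ± 42.3 to 543.1 ± 19.0 normalized counts (log2 -0.50).

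The remaining lowered lipid transporters had few counts. ABCA6 (ENSG00000154262, chr17:69078702-69141888) had 51, 32 and 34 raw counts in parent cells and 0, 6 and 2 in ADRr cells. The groups did not overlap (log2 -3.88, SE 0.537, edgeR adjusted p = 1.29e-06), and the size of the decrease depended on single libraries, with -3.29 without ADRr replicate 1 and -5.23 without ADRr replicate 2. ABCA8 (ENSG00000141338, chr17:68867292-68955392) had 26, 9 and 25 raw counts in parent cells and 7, 1 and 11 in ADRr cells. These values overlapped, and the call (log2 -1.71, SE 0.53, edgeR adjusted p = 0.00698) was lost without parent replicate 1 (edgeR adjusted p = 0.0504), while without ADRr replicate 3 the log2 value was -2.33. ABCG4, a sterol transporter of nervous tissue, fell from 39.3 ± 3.43 to 21.2 ± 3.50 normalized counts (log2 -0.89, edgeR adjusted p = 0.0113), and its adjusted p was 0.051 with DESeq2 and 0.0565 with edgeR without ADRr replicate 1.

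ABCA5, ABCA6, ABCA8, ABCA9 and ABCA10 lie side by side on chromosome 17 but did not move together. ABCA5 was higher, ABCA6 and ABCA8 were lower, and ABCA10 was not called at 55.7 ± 7.62 and 50.7 ± 4.25 normalized counts (95% interval of the log2 fold change -0.60 to 0.33). ABCA9 had 0 to 2 counts per library. ABCA4, the retinal transporter, was not called either, and its parent counts of 4, 25 and 1 were set by a single library. The sum of the 18 members was 23.7 ± 0.984 FPKM in parent cells and 26.5 ± 0.598 FPKM in ADRr cells.

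All 5 ABCB members of mitochondria and endolysosomes were tested, and 1 was higher and 4 were lower. ABCB6 (ENSG00000115657, chr2:219209766-219219017), a porphyrin transporter, had 47.3, 69.2 and 33.1 normalized counts in parent cells and 27.6, 12.6 and 20.6 in ADRr cells. The groups did not overlap, and the decrease was 2.43-fold (log2 -1.28, SE 0.331, edgeR adjusted p = 0.00172). Of its exonic bases, 54.7% also belong to AC068946.2 on the same strand, so its counts cover only part of its reads if shared reads were dropped. ABCB10, a mitochondrial inner membrane transporter of haem-forming cells, fell from 901.2 ± 50.4 to 560.8 ± 26.3 normalized counts (log2 -0.68). ABCB9, the lysosomal peptide transporter, fell from 278.6 ± 38.4 to 156.9 ± 24.8 (log2 -0.83), and its exonic bases overlap those of 3 genes on the other strand, by 20.7% with AC026362.1, 12.5% with OGFOD2 and 12% with ARL6IP4. ABCB8, part of a mitochondrial potassium channel complex, was the exception with 985.9, 903.3 and 1103 normalized counts in parent cells and 1192, 1273 and 1199 in ADRr cells. It rose 1.22-fold (log2 0.29, edgeR adjusted p = 0.00116), just past the threshold, and was not called without parent replicate 2 (log2 0.22). The summed level of the 5 went from 27.2 ± 0.756 to 20.8 ± 0.133 FPKM.

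Of the 4 ABCD members, 3 were tested, of which 2 were lower and 1 was not called. ABCD3, a peroxisomal importer of branched-chain and bile acid precursors, had 1636, 1858 and 1616 normalized counts in parent cells and 1096, 1151 and 1127 in ADRr cells. All ADRr libraries were lower (log2 -0.60, SE 0.0648, edgeR adjusted p = 3.09e-08). ABCD4, which moves cobalamin out of lysosomes, was at 1321 ± 81.9 and 1426 ± 41.4, with a 95% interval of the log2 fold change from -0.02 to 0.24. ABCD2 had no count in any library. The summed level went from 28.9 ± 0.731 to 22.4 ± 0.516 FPKM.

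The 4 members without membrane domains were all tested, and 1 was higher, 2 were lower and 1 was not called. ABCF1 (ENSG00000204574, chr6:30571376-30597179), which binds the initiation factor eIF2 and ribosomes, was the most abundant member of the family per length. Its normalized counts were 4857, 4887 and 4824 in parent cells and 2899, 2885 and 2876 in ADRr cells. The libraries of each group were nearly alike and the groups were far apart, with a 1.68-fold decrease (log2 -0.75, SE 0.0485, edgeR adjusted p = 4.96e-12). ABCF3 fell from 1445 ± 71.8 to 1191 ± 26.7 normalized counts (log2 -0.28), near the threshold, and was not called without parent replicate 1 or ADRr replicate 1 (log2 -0.25 in both). ABCF2 had 624.6, 637.2 and 657.4 normalized counts in parent cells and 810.8, 780.7 and 744.3 in ADRr cells. It rose 1.22-fold (log2 0.28, edgeR adjusted p = 0.00168), missed the threshold at log2 0.26 without parent replicate 1 or ADRr replicate 1, and shares 45.8% of its exonic bases with AC021097.2. ABCE1, the ribosome recycling factor, went from 2638 ± 225 to 2236 ± 53.5 with an edgeR adjusted p of 0.00151, but its log2 fold change of -0.24 was under the fold threshold. Without parent replicate 3 the value was -0.30 and ABCE1 was called. The summed level of the 4 went from 110 ± 2.11 to 80.9 ± 0.693 FPKM.

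Ordered by level per length, ABCF1, ABCC1, ABCE1, ABCC3 and ABCF3 held ranks 1 to 5 in both groups. ABCC1 and ABCE1 did not differ beyond their spread, at 24.9 ± 1.09 and 24.1 ± 2.07 FPKM in parent cells and 20.5 ± 0.45 and 20.5 ± 0.548 FPKM in ADRr cells. The order changed in the middle of the family. ABCC4, ABCA1 and ABCA3 moved from ranks 17, 19 and 18 to ranks 9, 12 and 13, and ABCG1 moved from rank 29 to rank 21.

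**Figure D3:**
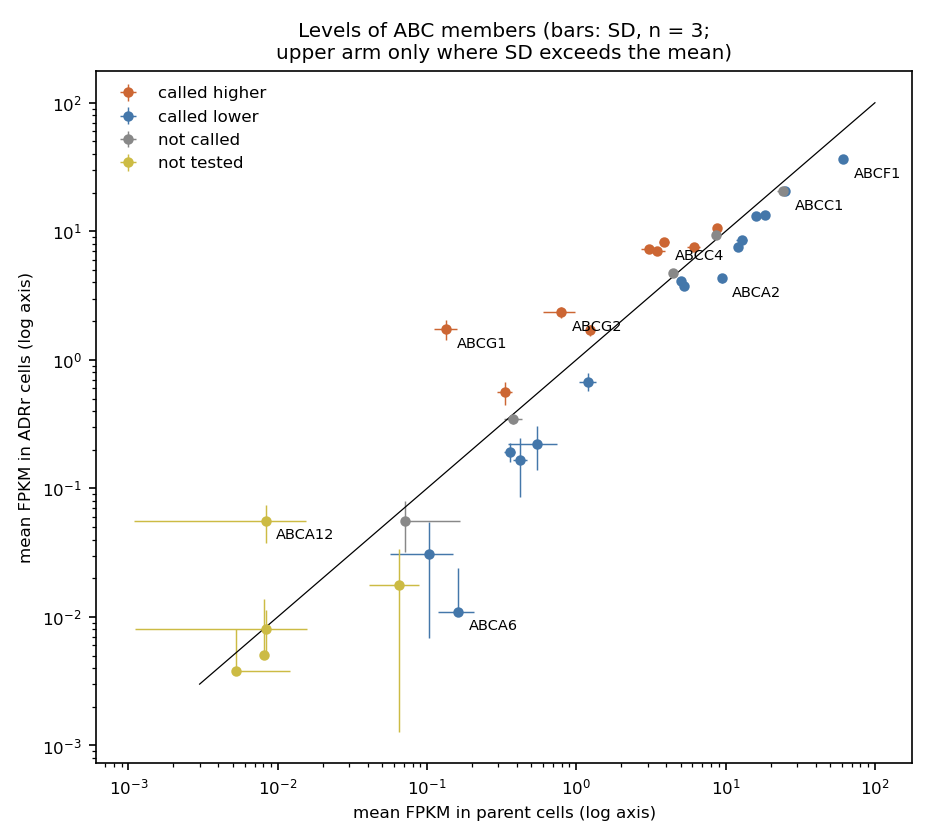
Mean FPKM in parent cells (x axis) is plotted against mean FPKM in ADRr cells (y axis), both on log axes, for 34 members with a value above 0 in both groups, with bars of 1 SD (n = 3) and a line of equal values. ABCF1 is at the upper right with 61.4 and 36.6 FPKM, ABCG1 lies farthest above the line among the tested members and ABCA6 farthest below it.

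The 14 members with too few counts for a test were ABCB1, ABCB4, ABCB5, ABCB11, ABCC8, ABCC9, ABCC11, ABCC12, ABCA9, ABCA12, ABCA13, ABCD2, ABCG5 and ABCG8. ABCB5, ABCB11, ABCC8, ABCC12 and ABCD2 had no count in any library. ABCB4, ABCG5, ABCG8 and ABCA13 had at most 5 counts in any library. ABCA12, a lipid transporter of skin, had 0, 2 and 2 raw counts in parent cells and 7, 12 and 9 in ADRr cells, and ABCC9, a sulfonylurea receptor, had 15, 7 and 17 against 0, 4 and 7. The ABCA12 groups did not overlap, while ABCC9 had 7 raw counts in both parent replicate 2 and ADRr replicate 3, which only scaling to library size set apart (7.57 and 6.54 normalized counts). When all genes were tested without the filter on low counts, ABCA12 was called higher (edgeR adjusted p = 0.00825) and ABCC9 lower (edgeR adjusted p = 0.0103), whereas DESeq2 gave adjusted p values of 0.0313 and 0.0625. In bulk libraries, fewer expressing cells and less RNA per cell cannot be told apart, for these and for all other members.

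The genes around the members with the largest changes were compared with them. Within 500000 bases of the start of ABCG1, 8 protein-coding genes were tested, of which 7 were higher, 0 were lower and 1 was not called, with a median log2 fold change of 1.35. PDE9A (log2 4.05) and TFF2 (log2 3.05) rose most. On all of chromosome 21, 69% of 158 tested genes were higher, with a median log2 fold change of 0.70. Around ABCG2, 4 neighbours were higher and 3 were lower, with a median of 0.45 and a highest value of 1.06, while the median of chromosome 4 was -0.33. ABCC4 had 2 tested neighbours, DNAJC3 (log2 0.60) and DZIP1 (log2 -5.36), and ABCA1 had 3, of which 1 was higher, 1 was lower and 1 was not called. Of the 39 neighbours of ABCA2, 12 were higher and 14 were lower, and of the 31 neighbours of ABCA3, 8 were higher and 7 were lower. ABCB6 had 22 tested neighbours (9 higher, 5 lower) and ABCC6 had 5 (1 higher, 1 lower). ABCA8 had 5 (2 higher, 1 lower) and ABCA6 had 3 (1 higher, 1 lower), and these 2 members are neighbours of each other. Of the neighbours of ABCG1 all but PRDM15 were called higher, and those of each of the other members named here were called in both directions. Over all genes tested 29.2% were higher and 29.6% were lower, so calls in both directions are common in these data. The part of the chromosome's level in the ABCG1 value was not tested.

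**Figure D4:**
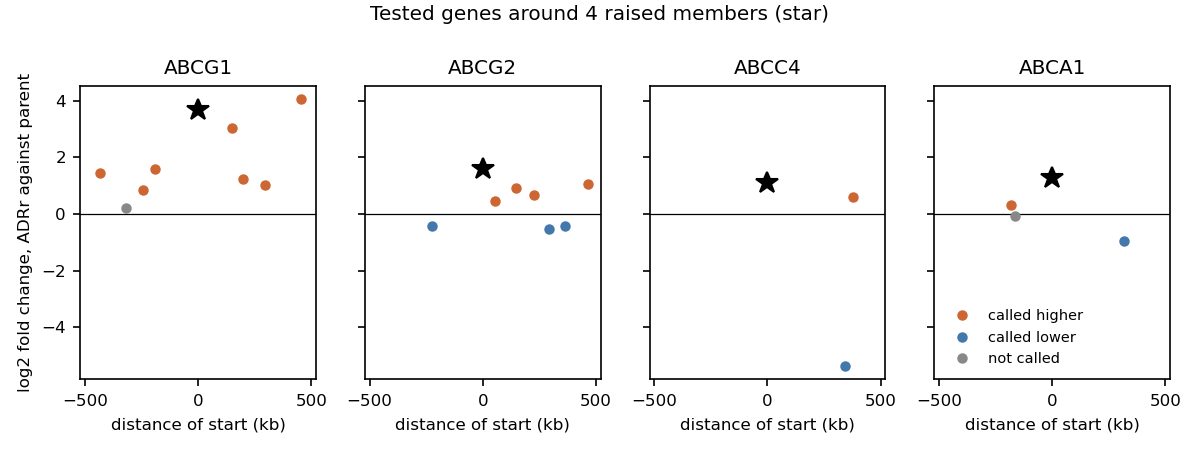
Log2 fold changes of tested protein-coding genes are plotted against the distance of their start from the start of ABCG1, ABCG2, ABCC4 or ABCA1 in kilobases, with the member as a star at distance 0. Around ABCG1 no neighbour lies below 0, and around ABCG2, ABCC4 and ABCA1 points lie on both sides of 0.

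Genes that regulate or work with the members were read from lists of their own. For comparison with the counts of each list, 29.2% of all genes tested were higher and 29.6% were lower. Of 20 regulators of ABC genes, 16 were tested, with 5 higher, 8 lower and 3 not called. FOXO1 (log2 1.11, SE 0.113) and AHR, the aryl hydrocarbon receptor known to induce ABCG2 (log2 1.07, SE 0.0588), rose most. NR1H3, the liver X receptor alpha gene, was lower (log2 -0.89, SE 0.135). NR1H2, the liver X receptor beta gene, was lower too (log2 -0.82). The target genes ABCA1 and ABCG1 were higher, and whether receptor level bears on them was not tested. NR1I2, the pregnane X receptor gene known to induce ABCB1, was not tested, with 0.686 ± 1.19 normalized counts in parent cells and none in ADRr cells. NFE2L2, the gene of NRF2, was higher (log2 0.71). Whether AHR, NFE2L2 or the other regulators act on the members in these cells was not tested.

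The 14 cholesterol efflux partners and liver X receptor targets included 13 tested genes, with 3 higher, 4 lower and 6 not called. NPC1 (log2 1.14, SE 0.051), which moves cholesterol out of lysosomes, rose most. LPL (log2 -1.99, SE 0.131), the lipoprotein lipase gene, and NR1H3, which is also on the list of regulators, fell most. NPC2 (log2 -0.58) and SCARB1 (log2 -0.33) were the other lower genes of the list. Among other known targets of the liver X receptors, PLTP was higher (log2 0.46, edgeR adjusted p = 0.00275), MYLIP was not called (log2 -0.28, edgeR adjusted p = 0.0576), and SREBF1 of the regulator list was higher (log2 0.70, edgeR adjusted p = 1.99e-09). APOE (log2 -0.40), APOC1 (log2 -0.03), LPCAT3 (log2 0.06) and SMPDL3A (log2 0.15) were not called.

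Of 13 anthracycline carriers and related genes outside the family, 8 were tested, with 4 higher, 2 lower and 2 not called. MVP, the major vault protein gene, which is not a membrane carrier, was among the 4 higher genes (log2 0.43). The nucleoside carrier SLC28A3 went from 5.09 ± 2.88 to 19.5 ± 4.70 normalized counts (log2 1.90, SE 0.485) and the organic cation carrier SLC22A4 from 174 ± 28.7 to 324.5 ± 21.4 (log2 0.90, SE 0.119). SLCO1B3, an organic anion carrier, fell from 60.1 ± 6.43 to 11.2 ± 6.83 (log2 -2.39, SE 0.338), and the nucleoside carrier SLC29A1 fell by 0.48 on the log2 scale. SLC22A16, a carnitine carrier known to take up doxorubicin, had no count in any library.

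Of 17 protein partners, 16 were tested, with 3 higher, 5 lower and 8 not called. KCNJ11, the potassium channel that pairs with sulfonylurea receptors, went from 2.45 ± 2.74 to 17.3 ± 3.82 normalized counts (log2 2.78, SE 0.617). Its raw counts in parent cells were only 0, 5 and 2. Of the sulfonylurea receptors, ABCC8 had no counts and ABCC9 had too few for a test. FECH, the ferrochelatase that associates with ABCB10, rose by a log2 of 0.48. HBS1L (log2 -1.15), which works with ABCE1 in ribosome rescue, and EZR (log2 -0.69), an ezrin gene whose product anchors membrane transporters, fell most. Of the superfamily genes with other symbols, the peptide transporter gene TAP2 was lower (log2 -0.33, SE 0.0585), TAP1 was not called (log2 -0.01), and CFTR had at most 1 count per library.

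**Figure D5:**
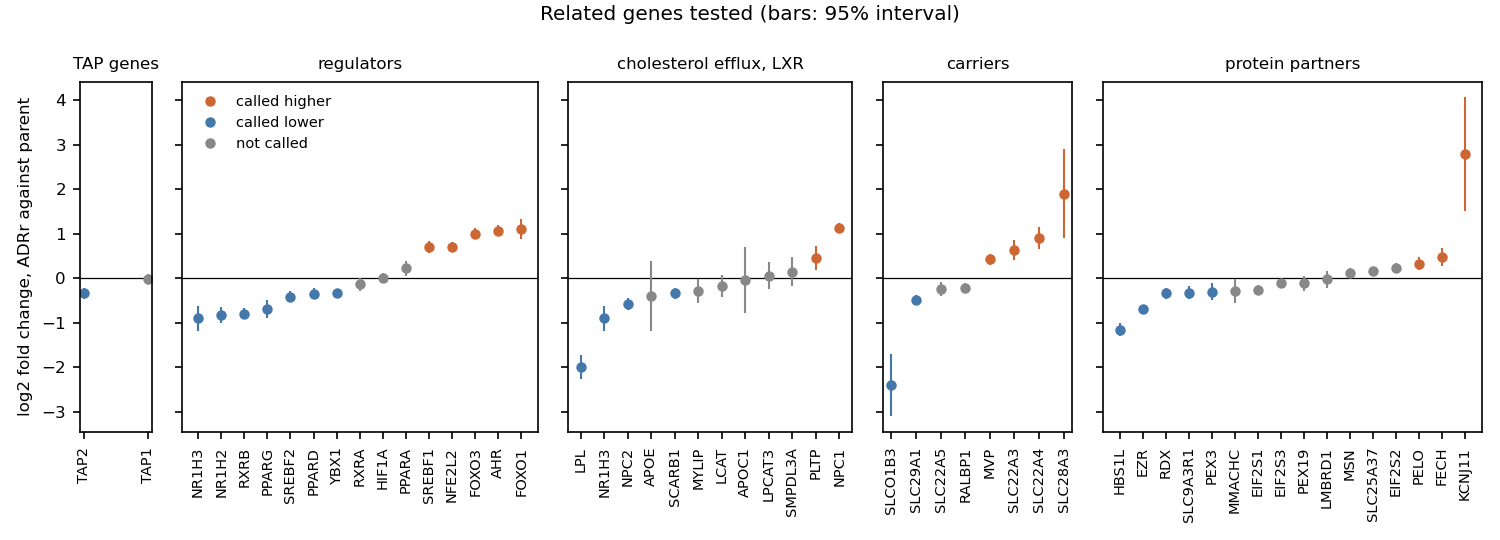
Log2 fold changes of ADRr against parent cells are plotted with 95% intervals for 52 tested genes of the 5 lists, sorted within each list and coloured by call. Each of the 4 larger lists has higher and lower genes, from SLCO1B3 at -2.39 to KCNJ11 at 2.78.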

How the data were processed

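Total RNA of 3 parent and 3 ADRr samples was sequenced after polyA selection. The submitters' processing notes name fastp, HISAT2 2.0.5, featureCounts 1.5.0-p3 and DESeq2 1.20.0 with GRCh38, and the coordinates of all 45 members equal those of GENCODE 29. The raw read counts per gene are as deposited by the authors. The FPKM values were also computed by the authors per gene length and library depth, and here they served to compare levels between genes. Strand settings and the handling of reads shared by genes are not given in the sources used here, so genes with overlapping exons or near-identical copies are uncertain.

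The test was edgeR 4.0.16 (R 4.3.3) with filterByExpr, TMM factors (0.987 to 1.01) and a quasi-likelihood fit over 15242 genes, with Benjamini-Hochberg adjustment over all of them. Calls needed a fold change of 1.2 or more with an adjusted p no higher than 0.05. Normalized counts are counts scaled to the mean effective library size. Values are mean ± SD with n = 3 per group. The steps were also run on simulated data in which few genes changed, so the scaling was not tested where many genes change. Exact permutation of 3 against 3 libraries cannot give a p below 0.1, so single-gene permutation was not used. Alternatives used DESeq2 1.42.0 and limma 3.58.1, the latter on log2(FPKM + 1) and log2(FPKM + 0.1). Figures and sequence steps used Python 3.11.15. Promoter windows came from RefSeq. A few genes of these lists are counted but their values are not reported here. The members, role groups and gene lists were chosen with earlier results of these data known. Values per library were given for ABCB1, ABCC1 and ABCG2, for members called and moved by 1 or more on the log2 scale, and for the largest called increase and decrease in each role group. In each related list the 2 largest called increases and decreases were named. Others named with them (NR1H2, NR1I2, NFE2L2, NPC2, SCARB1, PLTP, SREBF1, MYLIP, APOE, APOC1, LPCAT3, SMPDL3A, MVP, SLC22A16) were chosen after their values were seen.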

Additional observations from a re-analysis of the deposited data

How the results depend on the processing

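The counts of 9 higher and 17 lower members stayed within 1.5 times under other scaling factors, DESeq2, the filters on low counts, protein-coding genes alone and glmTreat (7 higher and 14 lower). With limma-trend on log2(FPKM + 1), which tested 23 members, 6 were higher, 10 were lower and the median log2 fold change was -0.24. On log2(FPKM + 0.1), also over 23 members, 8 were higher, 12 were lower and the median was -0.27. Without a filter, limma-trend on log2(FPKM + 1) tested 40 members, and 5 were higher, 11 were lower and the median was -0.026. The edgeR fit without a filter, also over 40 members, had a median of -0.285. The cause of these differences was not tested. A log2 threshold of 1.2 in place of a fold of 1.2 left 3 higher and 4 lower. Leaving out single libraries gave 8 to 9 higher members, 14 to 18 lower members (14 without ADRr replicate 1) and medians of -0.39 to -0.28. ABCA4 reversed to a log2 fold change of 1.69 without parent replicate 2 (edgeR adjusted p = 0.0567), the library with 25 of its counts, and ranged down to -0.87 otherwise. Same-numbered libraries of the groups did not deviate together (r = 0.01, -0.02 and -0.05), and a fit with the replicate number as a block gave 9 higher, 17 lower and a median of -0.29. Low counts limit ABCB1, ABCA6, ABCA8, ABCA12 and ABCC9. ABCC1, ABCC5, ABCB8, ABCF2 and ABCF3 lie near the fold threshold, and none passed glmTreat, a test against that fold.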

Other observations

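Of 13 pseudogenes named after ABC members, 2 were tested. ABCC6P1 was lower, as given beside ABCC6, and ABCA11P was not called, with raw counts of 48, 49 and 44 in parent cells and 44, 29 and 41 in ADRr cells (log2 -0.39, edgeR adjusted p = 0.177). ABCA17P, a copy beside ABCA3, had 4, 3 and 2 raw counts in parent cells and 12, 5 and 3 in ADRr cells, too few for a test.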
